A study of Arabidopsis thaliana with 40 samples.

Results

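Seedlings given trichostatin A (TSA) and seedlings given glutathione (GSH), both for 3 h, were compared directly for H3K9/14ac, the acetylation of lysines 9 and 14 of histone H3. The comparison rests on 4 of the 40 samples of the series, 2 ChIP-seq libraries per group, and leaves the water libraries out. All groups were 7-day-old Arabidopsis thaliana seedlings of ecotype Col-0, wild type, grown in shaken liquid medium with sucrose under short days. TSA was given at 5 µM and GSH at 250 µM, so the doses differ. Libraries of seedlings given 250 µM S-nitrosoglutathione (GSNO), alone or with 500 µM of the nitric oxide scavenger cPTIO, also for 3 h, served as a reference that belongs to neither group. Whole seedlings were used, so a change in every cell and a change in the share of cell types cannot be told apart.

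Histone acetyltransferases place acetyl groups on the tails of histone H3 near the starts of active genes, and histone deacetylases remove them. TSA blocks the zinc-dependent deacetylases, among them the plant enzymes HDA6 and HDA19, and leaves the NAD-dependent sirtuins largely untouched. GSH is the main low-molecular-weight thiol of the cell. In the series it stands beside GSNO as the same tripeptide without the nitroso group.

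The unit of measurement was the reads of each library in 13362 regions, recovered from the deposited group means. The 2 TSA libraries held 2261175 and 2311352 reads in these regions, and the 2 GSH libraries 2712504 and 3528470. In each group library a is the shallower, and the letters are not replicate numbers. Over the regions, log2 reads of the 2 TSA libraries correlated at 0.829 and those of the 2 GSH libraries at 0.886. A TSA library against any library of GSH, GSNO or GSNO with cPTIO gave 0.538 to 0.634, whereas libraries of these other groups gave 0.798 to 0.914 among each other. The TSA libraries thus stood apart from the other libraries of 3 h used here. These correlations are descriptions over regions, which are not independent.

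Of the 13362 regions, 3423 (25.6%) passed the threshold of an adjusted p under 0.05 in limma, with Benjamini-Hochberg adjustment over all regions. In 1645 (12.3%) acetylation was higher with TSA than with GSH, and in 1778 (13.3%) it was lower. Differences above 1 on the log2 scale, which is a 2-fold change, were found in 218 of the higher and 176 of the lower regions. Differences above 2 were found in 16 and 5. Both TSA libraries lay above both GSH libraries at 4236 regions (31.7%) and below them at 4171 (31.2%). With the scaling factors of the authors' tables in place of those computed here, the split was 1331 higher and 2213 lower. Because libraries were scaled to each other, the values cannot show a rise or fall common to the whole genome.

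The number of calls depended on single libraries and on the estimate of spread. Without GSH library a 1907 regions passed, and without GSH library b 2274. When the GSNO libraries shared the estimate of spread, 1321 passed, 396 of them higher and 925 lower, and without a trend of spread on level 2063 passed.

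The largest rise was at GIGANTEA (GI), a clock protein that promotes flowering. Its region on chromosome 1, 8061885 to 8062650, held 175 and 125 reads with TSA and 1 and 12 with GSH. Both TSA libraries were far above both GSH libraries, and the GSNO libraries, with 1 and 16 reads, resembled GSH. The log2 difference was 5.27 ± 2.08 (SE, n = 2 libraries per group; limma adjusted p = 0.0497). A single read is the lowest value in the tables, and the size of the fold depends on it. This call was lost without TSA library a (adjusted p = 0.694), without TSA library b (0.235) and in 4 other alternatives.

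PHT4;1, a phosphate transporter of the chloroplast, followed. Its region (chromosome 2, 12675230 to 12676036) held 202 and 141 reads with TSA and 9 and 36 with GSH. The log2 difference was 3.55 ± 0.69 (limma adjusted p = 4.33e-05), and the call was lost without TSA library a (adjusted p = 0.155). LNK4 (AT5G06980), of a family of clock coactivators, held 174 and 177 reads with TSA and 16 and 50 with GSH, a log2 difference of 2.99 ± 0.50 (limma adjusted p = 2.73e-06).

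Among the 12 largest rises, 4 were antenna genes: LHB1B2, LHCB2.1, LHCB2.2 and LHCB3, whose proteins bind chlorophyll around photosystem II. LHB1B2 held 159 and 165 reads with TSA and 23 and 45 with GSH (log2 difference 2.70 ± 0.49, limma adjusted p = 9.98e-06), in a region that AT2G08665 overlaps as well. LHCB2.1 held 157 and 136 against 24 and 38 reads, and LHCB2.2 97 and 104 against 13 and 33. LHCB2.1 and LHCB2.2 are near-identical copies, so reads may be split between them. In all 4 genes the groups were apart, and the levels with TSA were similar to each other.

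The rest of the 12 were AT3G53830, PMS1 (mismatch repair), AMY3 (a plastid alpha-amylase of starch breakdown), the clock repressor PRR7 and the light-signalling B-box protein BBX18. PMS1 held 198 and 167 reads with TSA and 34 and 57 with GSH, a log2 difference of 2.43 ± 0.37 (limma adjusted p = 3.42e-07), and kept its call in every alternative run. Its scaled reads were 235 and 193 with TSA and 34 and 44 with GSH. GSNO gave 95 and 106 and GSNO with cPTIO 140 and 86. On the log2 scale both of these groups lay nearer to TSA than to GSH at PMS1. PRR7 held 155 and 151 against 27 and 58 reads, a log2 difference of 2.33 ± 0.44 (limma adjusted p = 2.95e-05). AMY3 held 136 and 178 against 33 and 43 reads. That the groups were apart at each of them was a condition of the choice and is no further support. With the spread shared with the GSNO libraries, 11 of the 12 rises lost their calls. Without TSA library a LHCB2.1, LHCB2.2, AT3G53830 and BBX18 lost theirs, and without TSA library b LHCB2.2 and AT3G53830.

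**Figure D1:**
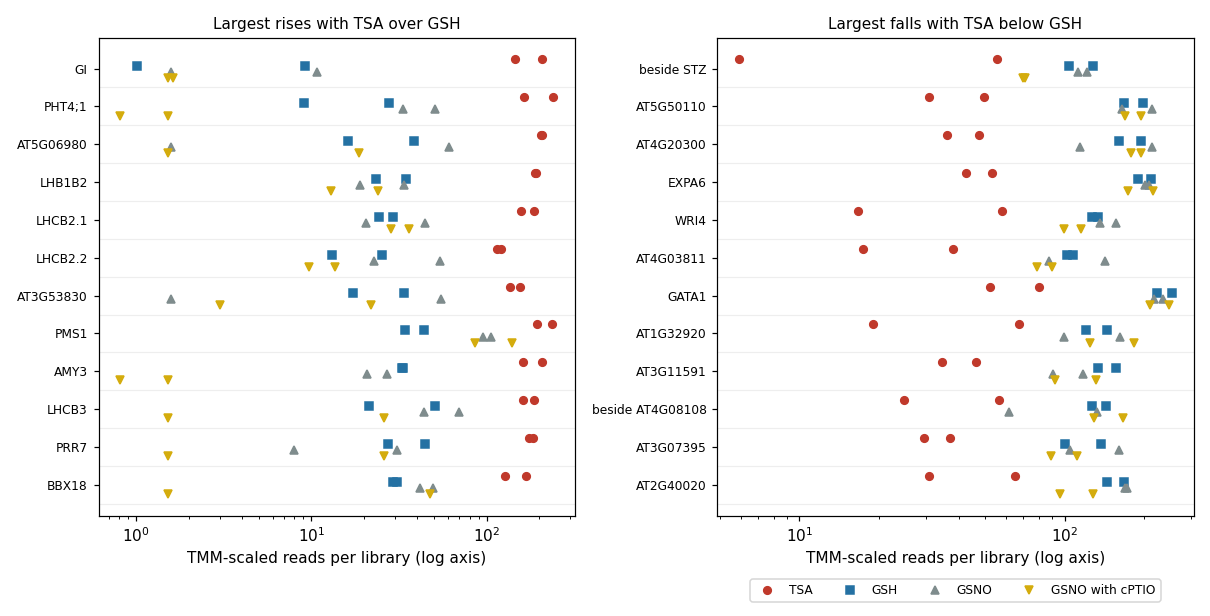
TMM-scaled reads in each library (log axis) at the 12 largest rises (left) and the 12 largest falls (right) among called regions whose TSA and GSH libraries do not overlap. Points are single libraries, 2 per group; the GSNO and GSNO with cPTIO libraries were not used in the choice. At GI the TSA libraries sit at 207 and 145 and the GSH libraries at 1.01 and 9.20.

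The falls were smaller. The largest was in a region of chromosome 1, 9649544 to 9650253, 221 bases outside the span of STZ (also called ZAT10), a zinc finger repressor of stress genes. It held 5 and 48 reads with TSA and 126 and 136 with GSH (log2 difference -2.55 ± 0.92, limma adjusted p = 0.0307). The 2 TSA libraries disagreed, and without TSA library a the difference was -1.04 (adjusted p = 0.0883) and without TSA library b it was -4.08. The call was also lost without GSH library a or GSH library b. WRI4, a factor of wax synthesis in a region that NUDT3 overlaps as well, had the same unequal TSA libraries, at 14 and 50 reads against 125 and 175. Without TSA library a the difference there was -1.16 rather than -2.03.

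EXPA6, an expansin that loosens cell walls, held 36 and 46 reads with TSA and 209 and 247 with GSH in 1 of its 2 regions (chromosome 2, 12431692 to 12432260). The log2 difference was -2.05 ± 0.34 (limma adjusted p = 2.47e-06). Its other region was not called, with a difference of -0.24 ± 0.15. GATA1, a zinc finger transcription factor, held 44 and 69 against 251 and 291 reads, a log2 difference of -1.87 ± 0.27 (limma adjusted p = 7.17e-08). EXPA6 and GATA1 kept their calls in every alternative run, as did AT5G50110, at 26 and 43 against 165 and 258 reads.

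The remaining falls of the 12 were AT4G20300, AT1G32920, AT3G11591, AT2G40020, the ncRNA locus AT4G03811, the lncRNA locus AT3G07395 and a region 2198 bases from AT4G08108, with log2 differences from -2.07 to -1.77. AT3G11590 and AT3G02475 overlap the region of AT3G11591 as well. Without TSA library a the difference at AT1G32920 was -0.97, against -1.85 with all libraries. Without GSH library a 9 of the 12 falls lost their calls, all but AT5G50110, EXPA6 and GATA1, and without GSH library b 6 did. Among regions above the median level the 5 largest rises were AT3G58660, LHCB6, AT5G02430, ATOEP16-4 and SAT32, with log2 differences of 1.27 to 1.39. The 5 largest falls there were AT4G05150, AT5G46780, STN1 (a telomere protein), AT5G18310 and AT1G76880, from -1.32 to -1.23. All 10 kept their calls in every alternative run. Further genes overlap the regions of LHCB6 (AT1G05207), ATOEP16-4 (AT3G62890), STN1 (AT1G07128 and AT1G07119) and AT1G76880 (AT1G76878).

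Of the 14 antenna regions, 11 rose and 0 fell, against 12.3% of all regions higher and 13.3% lower. Their median log2 difference was 1.52, and 0.00 over all regions. Their median log2 level in the GSNO and GSNO with cPTIO libraries was low, at 6.48. In the lowest of 10 equal groups of all regions by that level, 27.7% were higher and 1.35% lower. That group had a median difference of 0.36. The antenna of photosystem I rose at LHCA1, with 257 and 271 scaled reads with TSA against 57 and 64 (log2 difference 2.12 ± 0.26, limma adjusted p = 8.87e-10), at LHCA4 (1.93 ± 0.29) and at LHCA3 (1.41 ± 0.22). LHCB5, LHCB1.3 and LHCB4.2 rose by log2 differences of 1.62, 1.08 and 0.58, and LHCB6, at 339 and 309 scaled reads against 148 and 117, rose as well. LHCB4.3, LHCA2 and LHCB4.1 were not called, at 0.44 ± 0.21, 0.38 ± 0.20 and 0.33 ± 0.15. In all 14 regions both TSA libraries lay above both GSH libraries. This was so at 31.7% of all regions and at 737 of 1337 in the lowest level group. With the spread shared with the GSNO libraries, 5 antenna regions were called.

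Chlorophyll synthesis moved the same way, with 9 of 13 regions higher (69.2%, against 12.3% of all regions) and 0 lower, and a median of 0.53. CAO, which makes chlorophyll b, had 228 and 171 scaled reads with TSA against 25 and 102 with GSH (log2 difference 1.93 ± 0.36, limma adjusted p = 1.71e-05). Its GSH libraries differed widely, and without GSH library a the difference was 0.95 and without GSH library b 2.90. The protochlorophyllide reductases PORB and PORC rose by 1.05 ± 0.16 and 1.04 ± 0.21. GUN5, a subunit of magnesium chelatase, rose by 0.87 ± 0.19. HEMA1, GSA1, CHLM and CHLG were not called. Without a trend of spread on level, and with the shared spread, 5 regions of this list were called.

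The rest of the photosynthetic apparatus did not follow as a group. Of 25 regions of photosystem core, electron transport and Calvin cycle genes, 5 were higher (20.0%) and 1 lower (4.0%), with a median of 0.07. Over all regions the shares were 12.3% and 13.3%. PSAF and PSAL, subunits of photosystem I, rose by 1.13 ± 0.17 and 1.09 ± 0.33, and NPQ4, the sensor of thermal dissipation, by 0.88 ± 0.23. Without GSH library b NPQ4 lost its call, at 0.49, and PSAL lost its call without TSA library b or GSH library b. GAPB of the Calvin cycle fell by 0.97 on the log2 scale, with 98 and 107 scaled reads against 225 and 180, a call lost without GSH library a. The small subunit genes RBCS1A, RBCS1B and RBCS3B were not called. The higher count was 1 with the shared spread and 2 to 3 when any 1 library was left out.

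In the circadian clock 8 of 20 regions rose (40.0%, against 12.3% of all regions) and 0 fell, with a median of 0.49. Beside GI, LNK4 and PRR7 these were CDF3, CDF2 and CDF1, DOF factors that repress flowering, LNK3, and the blue light receptor ZTL. CDF3 had 358 and 303 scaled reads with TSA against 69 and 74 with GSH (log2 difference with a 95% interval of 1.77 to 2.62, limma adjusted p = 1.40e-13). PRR9 was not called, at 72 and 68 against 1 and 18 scaled reads (log2 difference 3.54 ± 3.38, limma adjusted p = 0.465). TOC1 was not called, at -0.28 ± 0.16, nor were ELF3, ELF4 and either region of LUX. CCA1, LHY and PRR5 had no region in the table. With the shared spread 1 clock region was called, and without TSA library b 5.

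Light signalling was divided, with 8 of 28 regions higher (28.6%), 5 lower (17.9%) and a median of 0.00. Over all regions 12.3% were higher and 13.3% lower. The B-box proteins BBX18, STO, STH, BBX32 and BBX22 rose, as did PIF4, PHYB and HYH, and STH lost its call without TSA library a. STO had 270 and 232 scaled reads with TSA against 53 and 66 (log2 difference 2.07 ± 0.27, limma adjusted p = 5.54e-09), and PIF4, a factor that promotes elongation, 164 and 162 against 50 and 59 (1.57 ± 0.36, limma adjusted p = 0.000499). The blue light receptor CRY1, RUP1, BBX21, PIF1 and 1 of 2 regions of PIF5 fell, CRY1 at 310 and 250 scaled reads with TSA against 449 and 402 with GSH. With the shared spread, and also without TSA library a, 3 of the rises were called. The falls numbered 8 under median centring and 3 without GSH library a.

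**Figure D2:**
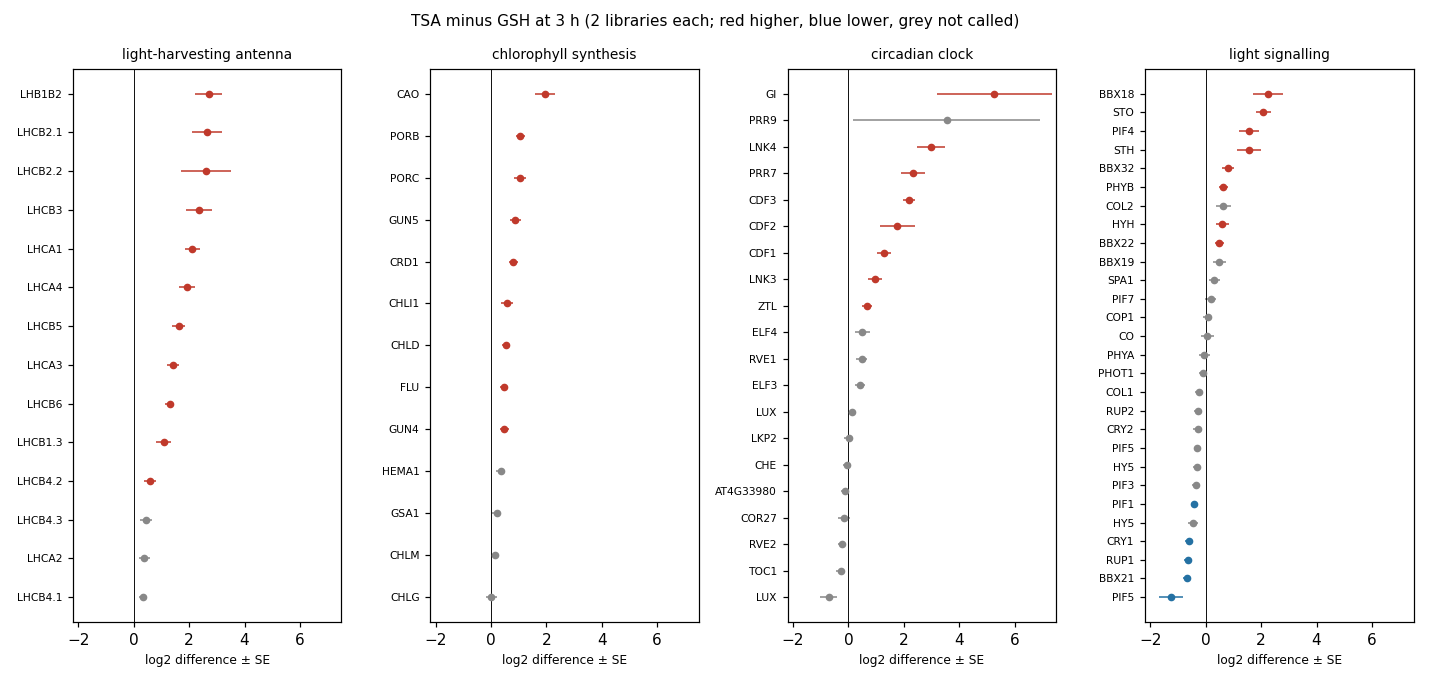
Log2 difference of TSA minus GSH with its standard error at each region of 4 gene lists, red where called higher, blue where called lower, grey where not called. All 14 antenna points and all 13 chlorophyll points lie above 0, clock points run from -0.71 to 5.27, and light signalling points lie on both sides.

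The list of starch and phosphoenolpyruvate carboxylase genes had 3 of 11 regions higher (27.3%, against 12.3% of all regions) and 0 lower. The 3 were AMY3, DPE1 (1.31 ± 0.22) and ADG1 (0.79 ± 0.21). One of the 2 regions of PPC2, a phosphoenolpyruvate carboxylase, had 1 and 12 scaled reads with TSA against 78 and 113 with GSH and was not called (-4.18 ± 3.03, limma adjusted p = 0.318). With the shared spread 1 region of this list was called.

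Of 33 regions of immune signalling and salicylic acid genes, 11 were lower (33.3%), 4 higher (12.1%) and 18 not called, with a median of -0.25. Over all regions 13.3% were lower and 12.3% higher. PAD4, a regulator of salicylic acid defence, had 116 and 56 scaled reads with TSA against 141 and 192 in 1 of its 2 regions (log2 difference -1.02 ± 0.30, limma adjusted p = 0.00623), and its call was lost without TSA library b, where the difference was -0.51, and without GSH library b. Without TSA library a the difference was -1.55. The membrane fusion protein SYP122 fell by 0.89 and NDR1 by 0.85 on the log2 scale. RBOHD, the oxidase of the defence oxidative burst, had 312 and 307 scaled reads with TSA against 537 and 512 with GSH. FLS2, MPK3, MKK4, SARD1, WRKY11, WRKY22 and WRKY33 were also lower, while NPR4, WRKY53, MPK6 and WRKY46 were higher. Without GSH library a, 7 were lower and 1 higher, and without TSA library a 2 were higher. NPR4 lost its call without GSH library a.

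In ethylene, touch and calcium genes 9 of 26 regions fell (34.6%) and 0 rose, with a median of -0.22. Over all regions 13.3% were lower and 12.3% higher. Their median level in the GSNO and GSNO with cPTIO libraries was 7.91. Among 10 level groups of all regions, the group at 7.94 had 18.7% lower and 5.61% higher. ERF4, an ethylene response repressor, had 203 and 286 scaled reads with TSA against 452 and 421 with GSH (log2 difference -0.85 ± 0.14, limma adjusted p = 2.40e-06). CML38, TCH2 and TCH3, calcium-binding proteins, fell by 0.78, 0.73 and 0.72 on the log2 scale, and EIN3, CTR1, EBF1, ERF5 and ERF104 were lower as well. CML38 lost its call without TSA library b or GSH library a, and TCH2 without TSA library b or GSH library b. The count was 3 without TSA library b, 4 without GSH library a, 4 without a trend and 2 with the shared spread.

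Abscisic acid, cold and drought genes had 10 of 26 regions lower (38.5%) and 3 higher (11.5%), with a median of -0.12. Over all regions 13.3% were lower and 12.3% higher. Their median level in the GSNO and GSNO with cPTIO libraries was 7.97. The level group of all regions at 7.94 had 18.7% lower and 5.61% higher. ZAT12, a zinc finger factor of oxidative stress, had 45 and 101 scaled reads with TSA against 167 and 201 (log2 difference -1.43 ± 0.31, limma adjusted p = 0.000201), and without TSA library a the difference was -0.86. The abscisic acid receptors PYR1 and PYL4 fell, PYR1 to 181 and 169 scaled reads against 376 and 435 with GSH, and PYL4 by 0.94 on the log2 scale. CBF3, a cold response factor, went the other way, with 255 and 247 scaled reads against 105 and 87 (1.38 ± 0.21, limma adjusted p = 4.14e-07). The falls numbered 5 without GSH library a and 6 without a trend, and the rises 1 without GSH library b.

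Jasmonate genes had 5 of 24 regions lower (20.8%) and 3 higher (12.5%), near the 13.3% and 12.3% of all regions. The factors MYC2 and MYC3 and the repressors JAZ1, JAZ2 and JAZ6 were lower, and the biosynthetic gene AOC2, the factor ORA59 and JAR1 were higher. In 1 of its 2 regions MYC2 had 534 and 528 scaled reads with TSA against 874 and 813 with GSH. AOC2 had 217 and 177 against 115 and 53 (log2 difference 1.32 ± 0.28, limma adjusted p = 0.000137), and without GSH library b the difference was 0.75. MYC3 lost its call without TSA library a, where its difference was -0.44 rather than -0.72.

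Genes that handle glutathione, thioredoxin and sulfur, the nearest to the GSH treatment, showed no common direction. Of their 28 regions 5 were higher (17.9%) and 4 lower (14.3%), near the 12.3% and 13.3% of all regions. Their median was -0.19. GSTF8 (0.92 ± 0.22), APR2 of sulfate reduction (0.77 ± 0.14), a glutathione reductase (0.70 ± 0.18), GSTU19 and SIR were higher. GSTF8 lost its call without GSH library a, at 0.54, and without TSA library a, at 0.73. GGT1, GPX2, NTRB and GSTF9 were lower. The GGT1 value rested on TSA library a, with 55 and 152 scaled reads against 182 and 176, and without that library the difference was -0.24, while without TSA library b it was -1.71. Its call was also lost without GSH library a or GSH library b. GSH1 and GSH2, the enzymes of glutathione synthesis, were not called. Without TSA library a 1 was higher, and without GSH library a 2 were higher and 1 lower; without GSH library b 2 were lower.

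Of 14 regions of histone deacetylase genes, a list that also holds the sirtuin SRT2, 4 rose (28.6%) and 1 fell (7.14%). Over all regions 12.3% were higher and 13.3% lower. HDA19 had 252 and 261 scaled reads with TSA against 163 and 170 with GSH (log2 difference 0.62 ± 0.17, limma adjusted p = 0.00385). HD2B, HD2C and HDA6 rose by 0.79, 0.78 and 0.51, and HDA14 fell by 0.88 on the log2 scale. Without GSH library b 2 rose and 0 fell, and HDA14 lost its call also without TSA library a, at -0.54, or GSH library a. HD2B lost its call whichever of the 4 libraries was left out. Of 11 acetyltransferase and adaptor regions 2 were higher (18.2%), ADA2A and HAC1, and 2 lower (18.2%), HAF2 and HAM2. Without GSH library b 0 acetyltransferase regions were lower, and without GSH library a or TSA library b 1 was higher and 1 lower. The difference at HAF2 was -1.09, and -0.67 without TSA library b. With 1 library left out, HAC1 kept its call when that was GSH library b and lost it otherwise, and HAM2 lost its call without GSH library b.

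The remaining lists had few calls. Shares over all regions were 13.3% lower and 12.3% higher. Median levels in the GSNO and GSNO with cPTIO libraries were 8.11 (nitrate), 7.88 (auxin), 7.75 (antioxidant) and 7.40 (cell wall). The level groups at 8.19, 7.94, 7.75 and 7.43 had 26.5%, 18.7%, 10.7% and 6.66% lower. In the same order, 4.57%, 5.61%, 7.93% and 11.1% were higher. Nitrate and nitric oxide genes had 3 of 10 regions lower, 2 at the nitrate transporter NRT1.1 and 1 at the nitrate reductase NIA2, and 1 without TSA library a. One of the NRT1.1 regions (-0.88) lost its call also without GSH library a or GSH library b, and its difference was -0.58 without TSA library a. Cell wall genes had 3 of 11 lower, EXPA6, XTH18 and TCH4, of which XTH18 (-1.29) lost its call without TSA library a, at -0.79, and without GSH library a or GSH library b, and EXP3 higher, a call lost without TSA library b or GSH library a. Auxin genes had 2 of 12 lower, IAA2 and ARF6, and 0 without TSA library a, GSH library a or GSH library b. The difference at IAA2 was -0.49, and -0.27 without TSA library a; ARF6 lost its call whichever library was left out. Among 12 regions of antioxidant enzymes and heat shock genes HSC70-1 was higher, a call kept without TSA library b and lost when any other library was left out, and HSFB1 lower (-0.62), a call lost without GSH library a, at -0.40. FSD1 in that list had 192 and 30 scaled reads with TSA and 1 and 166 with GSH, so each group held a high and a low library.

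Of 13 regions of genes often used as references, ACT2 was higher (0.44 ± 0.17, and 0.23 without TSA library a) and UBC9 and UBQ10 lower. The shares, 7.69% higher and 15.4% lower, stand beside 12.3% and 13.3% of all regions. UBQ10 had 230 and 224 scaled reads with TSA against 426 and 409 with GSH (log2 difference -0.88 ± 0.14, limma adjusted p = 1.004e-06) and kept its call in every alternative run. ACT2 lost its call in 9 alternatives and UBC9 in 8, and the difference at UBC9 was -0.45, and -0.23 without TSA library b. Of the root markers 3 of 8 genes had a region (SCR, SHR, GL2), with 0 called, and of the shoot markers 3 of 9 (TMM, KAN1, AS1). TMM was higher (0.43), a call lost without TSA library b, at 0.24, or GSH library b, at 0.27. KAN1 and AS1 went the other way and were not called, with -0.34 the lowest difference. In both, the TSA libraries lay below the GSH libraries.

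**Figure D3:**
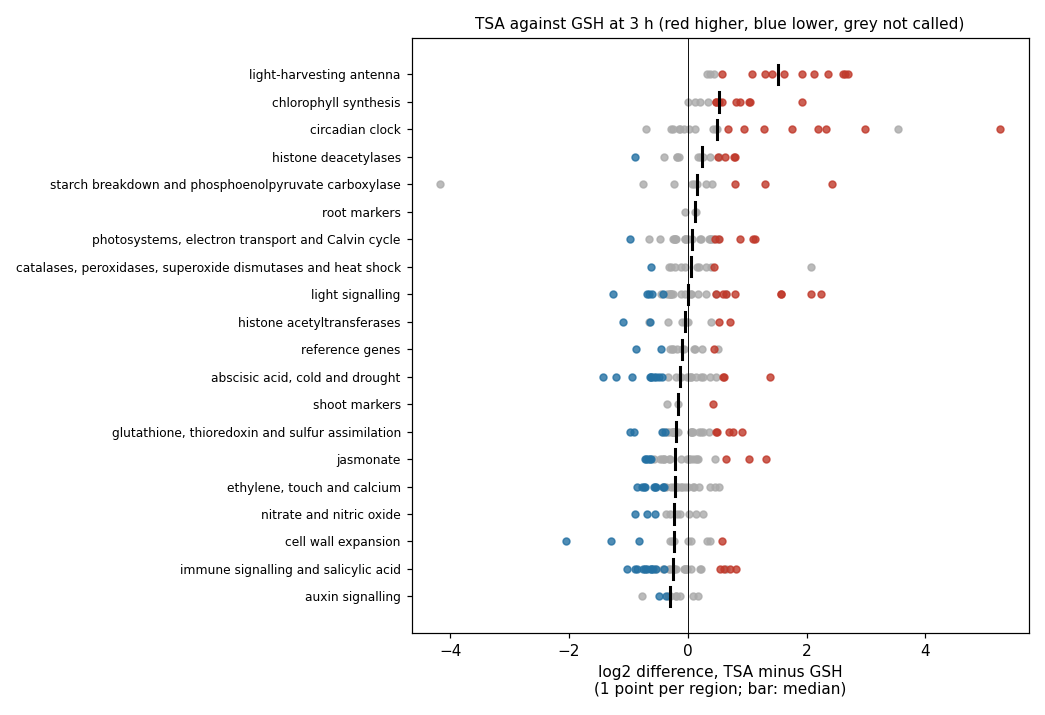
Log2 difference of TSA minus GSH at each region of 20 gene lists, ordered by their medians (black bars), red where called higher, blue where called lower, grey where not called. Antenna regions have the highest median, 1.52, and auxin regions the lowest, -0.30.

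The direction of the difference followed the level of acetylation in the GSNO and GSNO with cPTIO libraries. Regions were put into 10 equal groups by their mean level in the GSNO and GSNO with cPTIO libraries, which share no reads with TSA or GSH. At the lowest levels the median log2 difference was 0.36, and 371 regions were called higher against 18 called lower. At the highest levels the median was -0.35, and 18 were called higher against 672 lower. This median was -0.19 with quantile normalization and -0.15 with a level curve taken out, alternatives chosen after seeing the data. The medians fell at every step between. The interquartile range of log2 reads was 0.67 and 0.65 in the TSA libraries and 0.82 and 0.71 in the GSH libraries, whereas their standard deviations overlapped, at 0.58 and 0.54 with TSA and 0.65 and 0.56 with GSH. The libraries that gave the level correlated with GSH at 0.818 to 0.914 and with TSA at 0.538 to 0.604, and the part of this in the trend was not tested. With the level curve taken out, 1596 regions were higher and 1598 lower. The gene lists differ in this level, from a median of 6.48 (antenna) to 8.24 (reference genes). Their counts of calls were not adjusted for it. The clock and starch lists had a median level of 7.08, where the level group had 17.4% higher and 3.07% lower. The deacetylase list was at 7.28, and the level group at 7.26 had 14.9% higher and 3.97% lower. The immune list was at 7.85. The level groups at 7.75 and 7.94 had 10.7% and 18.7% lower, and 7.93% and 5.61% higher.

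**Figure D4:**
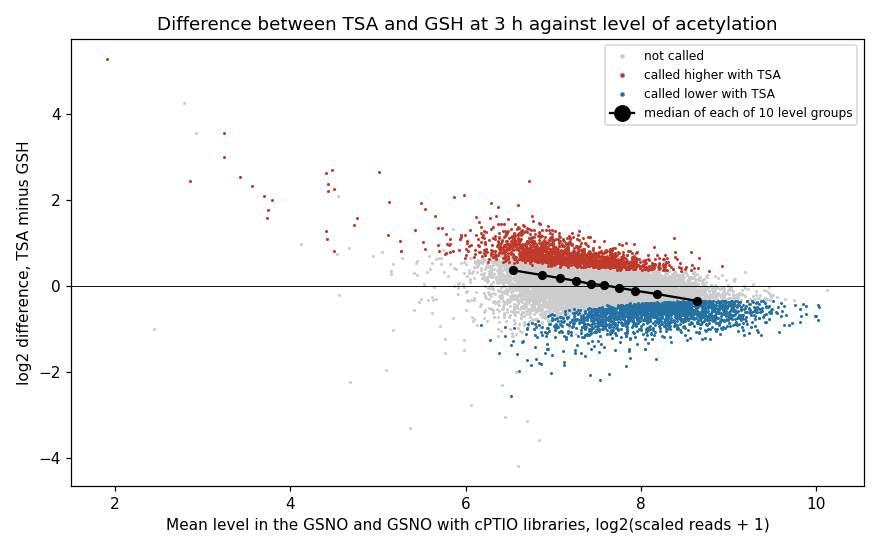
Log2 difference of TSA minus GSH (vertical) against the mean log2 level in the GSNO and GSNO with cPTIO libraries (horizontal), 1 point per region, with the median of each of 10 level groups in black. The medians fall from 0.36 to -0.35.

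Gene length went with the difference as well. With coding genes in 5 equal groups by length, the shortest group had a median of -0.15, with 196 regions higher and 530 lower, and the longest 0.16, with 481 higher and 156 lower. The order held with regions first put into 3 equal groups of level, and genes into 3 of length. At the lowest levels the medians went from 0.18 for the shortest genes to 0.34 for the longest, and at the highest levels from -0.32 to -0.12.

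**Figure D5:**
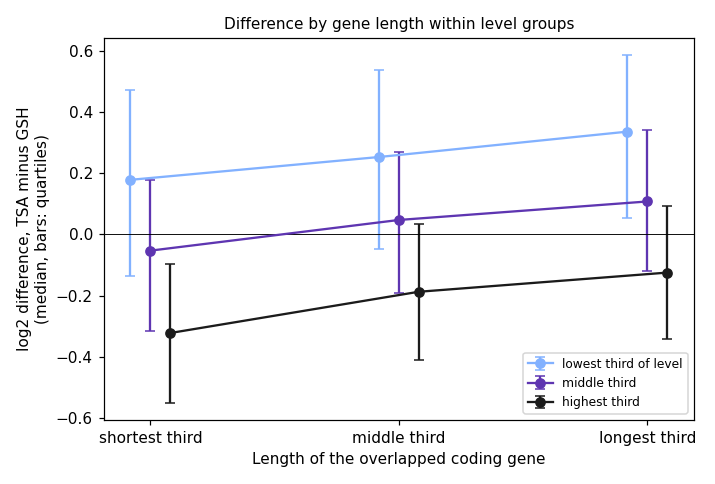
Median log2 difference of TSA minus GSH (points) with quartiles (bars) in 3 equal groups of coding gene length, within each of 3 equal groups of level. The level is that in the GSNO and GSNO with cPTIO libraries. At every level the median is higher for longer genes.

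Of 318 regions that overlap no coding gene, 78 were lower with TSA and 8 higher, with a median of -0.39, against 0.01 for regions on 1 coding gene. Over all regions 13.3% were lower and 12.3% higher. Among the regions with no coding gene, 41.2% of 51 regions at ncRNA loci were lower, 37.0% of 27 at miscellaneous RNA loci, 29.4% of 17 at miRNA loci and 23.3% of 60 at lncRNA loci. The share was 18.9% of 53 regions at pseudogenes, 15.4% of 26 at snoRNA loci and 8.33% of 36 at transcribed pseudogenes. Of 48 regions that overlap no gene, 22.9% were lower. The differences between these classes were not tested. The 5 chromosomes had medians between -0.02 and 0.02.

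At most of the regions called the other treatments lay nearer to GSH than to TSA, though not at PMS1. At 91.2% of the regions higher with TSA, the mean of the GSNO libraries was nearer to GSH than to TSA, and for GSNO with cPTIO at 89.9%. At the lower regions the shares were 96.0% and 95.2%. These regions were chosen by the difference of TSA from GSH, so the shares are a description and not a test. The same shares over all regions were not computed. Over all regions the GSNO and GSNO with cPTIO libraries correlated with GSH at 0.818 to 0.914 and with TSA at 0.538 to 0.604. Whether the nearness to GSH is particular to the called regions was therefore not tested.

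Peak lists, deposited per library, held 13672 and 11119 peaks with TSA and 12979 and 11744 with GSH. The means were 12395.5 and 12361.5 (exact two-sided permutation test, p = 1). The smallest p that 2 against 2 lists allow is 0.333, so this test could not show a difference. Of the regions, 8444 held a peak in all 4 lists. A peak in both TSA lists and in no GSH list was found at 326 regions, of which 255 were called higher and 0 lower. A peak in both GSH lists and no TSA list was found at 713, of which 280 were called lower and 0 higher. The peaks come from the same libraries as the reads and are no independent support.

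Over all 13362 regions, 326 had a peak in both TSA lists and in no GSH list, and 713 the reverse. Among the antenna regions, 6 of 14 had a peak in both TSA lists and in no GSH list, and 0 the reverse. The clock list had 6 of 20 such regions, GI, LNK4 and PRR7 among them, and 1 the reverse. Of the 12 largest falls, 11 had a peak in both GSH lists and in no TSA list, and the region beside STZ had a peak in no list. The falls were chosen by the reads of the same libraries, so their peaks are no further support.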

How the data were processed

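Members, gene lists and tests were chosen with earlier results of these data known. The authors deposited, for 13362 regions, the log2 mean of scaled reads per group, and a peak list per library with start and end of each peak. DiffBind and edgeR, and the builds TAIR10 and TAIR9, are named per the submitters' processing notes. The aligner and the peak caller: not given in the sources used here. Coordinates are as the tables give them. Each deposited log2 mean came out as whole reads of 2 libraries times 1 factor each, within a relative tolerance of 1e-08, at every region. Where several pairs of factors gave whole reads, the pair that best balanced the scaled totals was kept. The recovery was tested on simulated tables: with factors rounded to few decimals several pairs were possible and the right one was missed for 1 of the simulated pairs, and with full-digit factors all were right. Recovered libraries carry no replicate number.

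After TMM scaling (trims 0.3 and 0.05), log2(reads + 1) of the 4 libraries was fitted in limma 3.58.1 under R 4.3.3, with a trend and two-sided tests, at a threshold of 0.05. Differences on this scale understate changes of low regions. P-values rest on the spread between 2 libraries per group, pooled by limma over regions of like level. The pooled part weighed as 114.54 degrees of freedom, so each p-value reflects mostly that pooled spread and little of the region's own. Intervals of 95% lay within 1.5-fold of no change at 36.2% of regions. Regions were named by the gene they overlap most in the RefSeq table. The named regions are called and non-overlapping: the 12 largest each way, the 5 largest each way above the median level, and up to 4 called regions per list; other members are named to account for a list. The 20 lists hold 429 genes, 316 with a region. In 1 GSH peak list a record of 23459830 bases was left out, a choice made after seeing the data. Promoter sequences, gene starts and exons were not used here.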

Additional observations from a re-analysis of the deposited data

How the results depend on the processing

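No paired analysis was possible because the recovered libraries carry no replicate numbers. Of 90 named regions, 39 kept their call in all 15 alternatives and 0 reversed. The alternatives of quantile normalization, a level curve taken out and the wide peak record kept were chosen after seeing the data. A mean of 20 reads removed 0 regions, and the peak threshold could not be run because every peak score is the same. All 20 lists were rechecked in each direction that had a call. The causes of the following shifts were not tested. Without a trend 2063 regions were called (1041 higher, 1022 lower), with the shared spread 1321 (396 higher, 925 lower), and with any 1 library left out 1907 to 2441 (1008 to 1079 higher, 854 to 1433 lower). In those fits the lone library of a group is assumed to vary like the other group. The median at the highest levels was -0.19 with quantile normalization and -0.15 with the level curve taken out. Counts of called regions per list that moved by over 1.5 times follow, with the lists in brackets. Median centring gave 0 (antioxidant and reference) called higher and 3 (photosystem), 8 (light), 4 (auxin) called lower. Scaling to library totals gave 1 (auxin and reference) called lower. The tables' factors gave 0 (antioxidant and reference) called higher and 3 (photosystem), 8 (light), 4 (auxin) called lower. A fit without a trend gave 3 (photosystem and glutathione), 5 (chlorophyll), 0 (cell wall, antioxidant, reference and shoot), 1 (acetyltransferase) called higher and 2 (photosystem), 4 (ethylene), 6 (abscisic acid), 1 (glutathione and reference), 0 (antioxidant and auxin) called lower. Voom weights gave 1 (acetyltransferase) called lower. The spread shared with the GSNO libraries gave 5 (antenna and chlorophyll), 1 (photosystem, clock, immune, abscisic acid, acetyltransferase and starch), 3 (light and glutathione), 0 (cell wall, antioxidant, reference and shoot), 2 (deacetylase) called higher and 3 (light), 2 (ethylene), 1 (glutathione, acetyltransferase and reference), 0 (deacetylase and auxin) called lower. Quantile normalization gave 0 (cell wall and reference), 2 (immune and antioxidant) called higher and 2 (glutathione), 1 (auxin and reference) called lower. Taking out the level curve gave 0 (cell wall and reference), 5 (abscisic acid), 3 (antioxidant) called higher and 2 (photosystem and glutathione), 1 (acetyltransferase, auxin and reference) called lower. With any 1 library left out, the counts ranged as follows: 2 to 3 (photosystem and deacetylase), 3 to 7 (light), 1 to 4 (immune), 1 to 5 (glutathione), 0 to 2 (antioxidant), 0 to 1 (reference, cell wall and shoot), 5 to 7 (clock), 1 to 2 (acetyltransferase and abscisic acid) called higher and 0 to 2 (photosystem, auxin, antioxidant and acetyltransferase), 1 to 4 (nitrate), 0 to 1 (deacetylase), 3 to 7 (ethylene), 1 to 3 (reference and glutathione), 3 to 5 (light), 7 to 11 (immune), 5 to 9 (abscisic acid) called lower. Peak overlaps and counts moved by less than 1.5 times. With the wide record kept, 244 regions had a peak in both TSA lists alone and 777 in both GSH lists alone.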

Other observations

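Of 292 genes that held 2 regions, 2 had both regions higher with TSA and 23 had both lower. Over all regions 12.3% were higher and 13.3% lower. The counts of genes were not adjusted for level in the GSNO and GSNO with cPTIO libraries, which went with the direction of the difference. In 4 genes, named after their values were seen, 1 region was called higher and the other lower. ECT2, a reader of methylated adenosine in RNA, had log2 differences of -1.57 and 0.44 (TSA minus GSH). AGO3, an Argonaute protein, had 0.80 and -0.93, AT3G09000 had 0.50 and -1.12, and AT5G51180 had 0.51 and -0.72. A further 129 of these genes had 1 region called and the other not called.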
